A study of Mus musculus with 14 samples.

Results

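10 heat shock protein genes of the cytosol were described here: the HSP70 genes Hspa1a, Hspa1b and Hspa8, the HSP90 genes Hsp90aa1 and Hsp90ab1, the HSP110 gene Hsph1, the J-domain gene Dnajb1, and the small heat shock protein genes Hspb1, Hspb7 and Cryab. They were taken by symbol from a table of read counts, in which 10 of 23337 genes matched, and all 10 were among the 11170 genes that passed a filter on low counts. The counts came from poly(A) RNA of heart muscle cells of 4-week-old mice. Both groups were Rosa-Cas9GFP animals, a strain whose name gives Cas9 and GFP at Rosa. On postnatal day 1 they were injected with AAV-Ryr2gRNA, an adeno-associated virus with guide RNA to Ryr2, the gene of the cardiac ryanodine receptor (gRNA group, n = 7), or with AAV-Cre, a virus with Cre recombinase (control group, n = 7). Cardiomyocytes were isolated by Langendorff perfusion and sorted. The sources used here do not give the sorting gate, the viral promoters or whether AAV-Ryr2gRNA held Cre too, and guide and vector effects cannot be told apart. The labels do not say that the 7 samples of a group came from separate animals, and p-values therefore measure the spread between these samples.

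Heat shock proteins are chaperones, proteins that hold unfolded or damaged proteins and help them fold. HSP70 works with J-domain proteins, which deliver substrates and trigger ATP hydrolysis, and with HSP110, which exchanges its nucleotide. HSP90 acts later, on nearly folded clients such as kinases, steroid receptors and myosin, together with a set of cochaperones. Small heat shock proteins bind unfolding proteins without ATP, and in heart muscle several of them sit on the Z-disc and on intermediate filaments. Some of these genes are made at all times (Hspa8, Hsp90ab1), and others are switched on sharply by heat shock factor 1 when proteins unfold (Hspa1a, Hspa1b, Dnajb1, Hsph1).

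The libraries held 5689335 to 13165662 counts. Levels are given as CPM, the counts per 1000000 counts of a library after TMM scaling, and changes as the log2 fold change of gRNA minus control. Ryr2 stood at 602 to 763 CPM in the controls and at 225 to 371 CPM in the gRNA libraries, so that the mean of the gRNA group was 45.8% of the control mean (exact two-sided permutation test, p = 0.00058, the smallest that 3432 assignments can give). Cardiomyocyte markers were abundant in all libraries (6 genes, summed 63130 to 92500 CPM). Of the 6, 4 were lower in the gRNA group (Myl2, Pln, Tnni3 and Tnnt2), beside 13.7% of all genes. Of 7 macrophage markers 3 were higher in the gRNA group (C1qb, Emr1 and Lyz2), beside 14.5% of all genes, and 5 were at an unadjusted p under 0.05. The 7 markers summed to 17.7 to 93.2 CPM in controls and 50.5 to 378 CPM in gRNA libraries. Endothelial markers summed to 196 to 545 and 157 to 616 CPM, fibroblast markers to 176 to 568 and 151 to 1156 CPM, and none of the 6 tested genes in either list passed the test (0 at an unadjusted p under 0.05, and 0 with DESeq2). The pericyte list had 1 lower gene of 5, Abcc9, beside 13.7% of all genes, and summed to 365 to 512 and 256 to 464 CPM. Erythroid markers summed to 0.863 to 16.1 CPM in controls and 0.862 to 72.9 CPM in gRNA libraries. Of these, Hba-a1 and Hba-a2 had no counts, and the 1 gene tested, Beta-s, reached 65.8 CPM in 1 gRNA library (log2 1.28, adjusted p = 0.19). The part of these cells in the results below was not tested, apart from a fit with the endothelial markers, and fewer cells of a type cannot be told apart from less RNA per cell.

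Per length of transcript, the small heat shock protein Cryab (alpha B-crystallin, a chaperone of desmin filaments) was the most abundant of the 10 genes. It had 1219 ± 99.3 CPM per kilobase in controls (SD, n = 7), above every control value of the next gene. Hsp90ab1 (489 ± 32.9), Hspb7 (478 ± 34.3) and Hspa8 (461 ± 30.1 CPM per kilobase) followed, and the control values of neighbours in this order overlapped. Hspb1 (211 ± 18.2) lay below all of these and above all of the rest. Dnajb1 (37.7 ± 14.9), Hsp90aa1 (21.3 ± 3.21), Hsph1 (20.04 ± 2.05), Hspa1a (17.5 ± 11.5) and Hspa1b (16.7 ± 12.04 CPM per kilobase) formed the low end, where each gene overlapped with the next. Among all tested genes Cryab held place 64 per length and Hspb1 place 307, while Hspa1b held place 3513. How reads common to the near-identical copies Hspa1a and Hspa1b were counted is not known here, so their levels and places are uncertain.

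**Figure D1:**
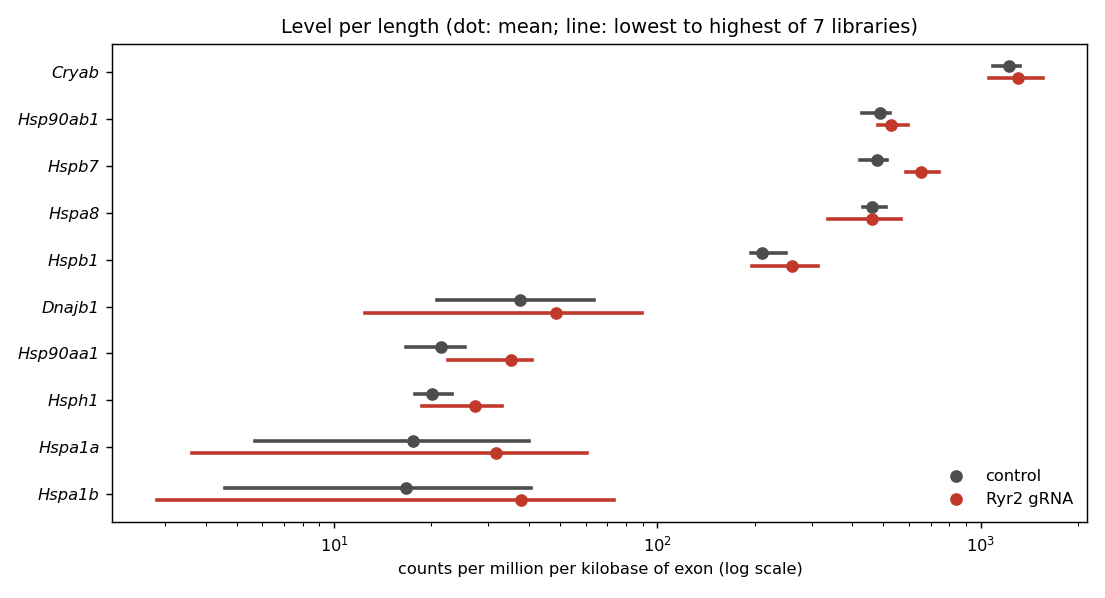
Level of the 10 genes in CPM per kilobase of exon on a log axis, with the mean as a dot and the lowest to highest of 7 libraries as a line, controls in grey and gRNA libraries in red. Cryab lies highest at 1219 CPM per kilobase in controls, and the lines of Hspa1a and Hspa1b are the widest.

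Of the 10 genes, 4 were higher in the gRNA group, Hspb7, Hsp90aa1, Hsph1 and Hspb1, and none was lower (edgeR quasi-likelihood test, Benjamini-Hochberg adjusted over all genes). No member was lower at an unadjusted p under 0.05 (0 genes) or with DESeq2 (0 genes). Of all 11170 genes 14.5% were called higher and 13.7% lower. The log2 fold changes were above 0 for 9 of the 10, with a median of 0.40, beside 0.01 over all genes. The increases were modest, between 1.24-fold and 1.65-fold by group means. Only Hspb7 had groups that did not overlap, and of all genes 5.84% lay higher and 4.71% lower without overlap. The larger mean differences of Hspa1a and Hspa1b lay within a spread that exceeded them.

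**Figure D2:**
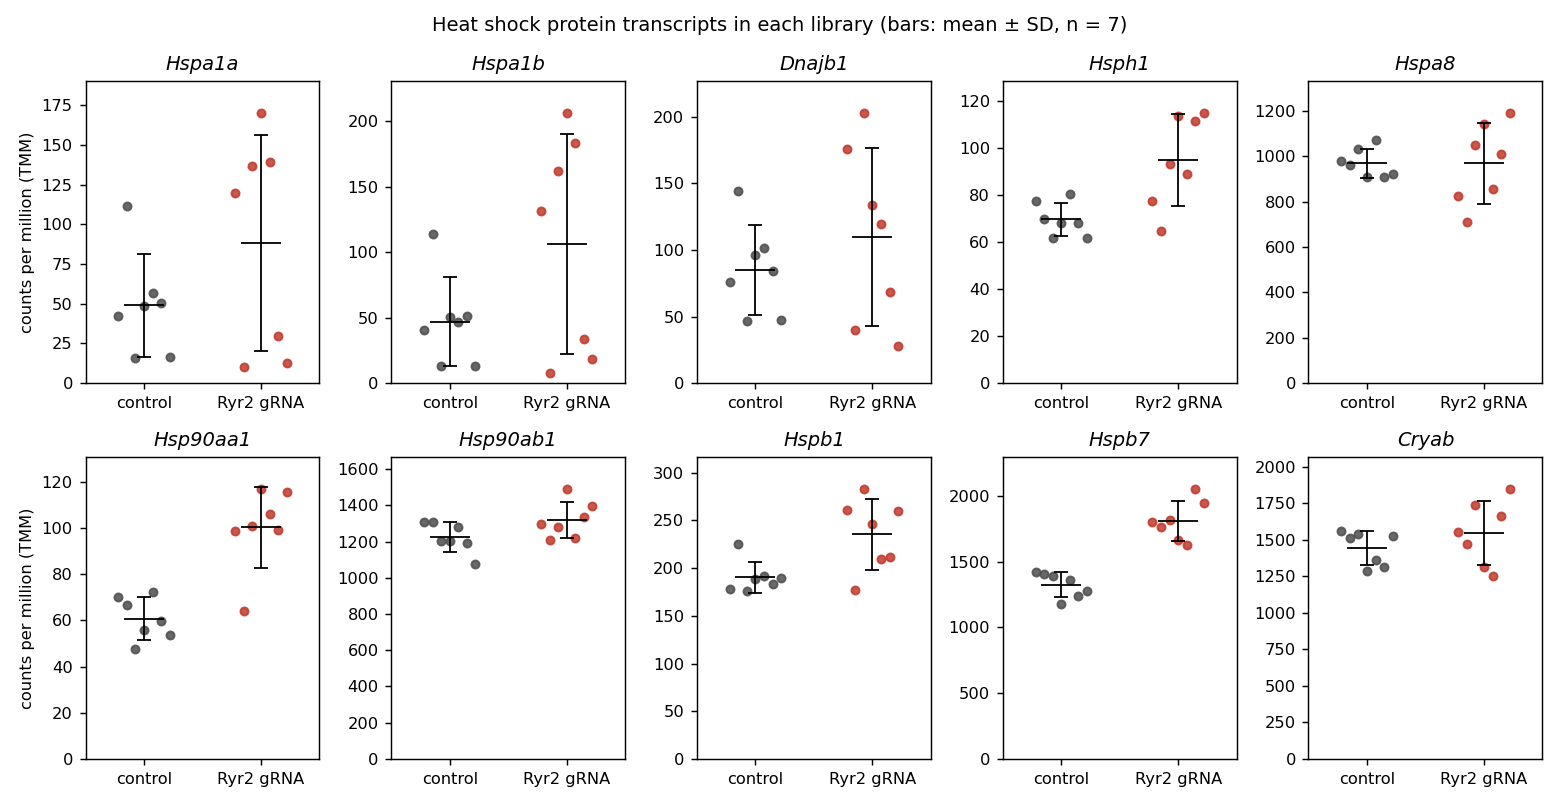
CPM of each of the 10 genes in each library on axes that start at 0, with controls in grey, gRNA libraries in red and bars for mean ± SD (n = 7). The groups are apart for Hspb7 (at most 1420 against at least 1627 CPM), while Hspa1a, Hspa1b and Dnajb1 spread widely in both groups.

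Promoter sequences of the members are shown because heat shock factors bind repeats of the pentamer that reads GAA on one strand and TTC on the other. RefSeq windows (GRCm38.p6, the assembly of mm10) were found for 6 members, and the 250 bases before the start are printed for Hspa1a and Hspa1b, near-identical copies that varied most between libraries, and for Hsph1, Hspb1 and Hspb7, which rose and have an entry, 5′ to 3′ in the direction of the gene. Capitals mark each match to GAANNTTC or TTCNNGAA. Each of these reads the same on both strands, and matches of both may overlap.
Hspa1a, chr17:34972157-34972406, minus strand: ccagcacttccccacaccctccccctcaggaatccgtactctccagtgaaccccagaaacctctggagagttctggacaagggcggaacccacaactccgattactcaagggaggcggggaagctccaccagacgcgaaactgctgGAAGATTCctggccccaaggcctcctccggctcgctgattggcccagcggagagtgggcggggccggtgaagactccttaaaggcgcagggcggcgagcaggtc
Hspa1b, chr17:34959239-34959488, minus strand: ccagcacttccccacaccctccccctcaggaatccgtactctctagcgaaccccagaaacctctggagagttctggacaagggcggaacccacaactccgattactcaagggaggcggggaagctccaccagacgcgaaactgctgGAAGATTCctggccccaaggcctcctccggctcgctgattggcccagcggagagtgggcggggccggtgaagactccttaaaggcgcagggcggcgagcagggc
Hsph1, chr5:149636337-149636586, minus strand: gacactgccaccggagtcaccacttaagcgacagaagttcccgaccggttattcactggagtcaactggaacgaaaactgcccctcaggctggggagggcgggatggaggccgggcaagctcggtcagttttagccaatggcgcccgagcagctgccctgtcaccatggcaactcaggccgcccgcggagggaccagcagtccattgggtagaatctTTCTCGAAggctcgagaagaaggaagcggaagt
Hspb1, chr5:135887669-135887918, plus strand: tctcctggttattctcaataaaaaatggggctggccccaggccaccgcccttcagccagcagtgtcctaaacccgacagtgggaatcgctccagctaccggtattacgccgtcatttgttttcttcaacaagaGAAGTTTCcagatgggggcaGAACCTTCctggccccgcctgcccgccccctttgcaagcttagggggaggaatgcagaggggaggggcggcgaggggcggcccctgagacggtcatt
Hspb7, chr4:141420529-141420778, plus strand: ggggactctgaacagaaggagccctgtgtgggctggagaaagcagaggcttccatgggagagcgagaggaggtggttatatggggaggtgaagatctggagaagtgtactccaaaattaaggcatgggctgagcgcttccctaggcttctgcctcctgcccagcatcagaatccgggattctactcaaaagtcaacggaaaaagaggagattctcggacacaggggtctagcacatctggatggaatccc

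The promoters of Hspa1a and Hspa1b differed at 3 of 250 bases (98.8% identity), and each held 1 match, which starts 104 bases before the start of the gene. Hspb1 held 2 matches, and the printed window of Hsph1 held 1. A second Hsph1 entry, chr5:149636316-149636565, adjoins the span of the gene and holds the same match 54 bases before that entry's start. No match was found in Hspb7 or in the 2 windows of Dnajb1. The second Dnajb1 window, chr8:83608298-83608547, lies within the span of the gene, so it is not sequence before the gene. Of 32851 windows of the same length, 12.8% held at least 1 match. The 3-part forms, GAANNTTC followed by NNGAA and TTCNNGAA followed by NNTTC, were found in 0.466% of all windows and in none of the members' (0 of 6 genes). A match is a description of the letters only, and factors bind imperfect repeats as well.

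Hspb7, a small heat shock protein of heart and skeletal muscle that binds the thin filament and filamin C, was higher in the gRNA group without overlap. Its control libraries held 1175 to 1420 CPM (median 1362) and its gRNA libraries 1627 to 2051 CPM (median 1803). Every gRNA library was above every control. Group means were 1324 ± 94.8 for control and 1809 ± 149 CPM for gRNA (SD, n = 7), a 1.37-fold difference (log2 0.45, SE 0.0640, adjusted p = 6.0e-05). Hspb7, a gene of 3 exons, spans 141420779 to 141425310 of chromosome 4 (mm10, plus strand).

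Hspb1, which encodes HSP27, a stabiliser of actin filaments, rose less and with overlap. The controls ranged from 176 to 225 CPM (median 188) and the gRNA libraries from 178 to 283 CPM (median 246). In all, 4 gRNA libraries lay above all controls and 3 lay among them. Group means were 190.5 ± 16.5 for control and 235 ± 36.9 CPM for gRNA (SD, n = 7), with a log2 fold change of 0.31 (SE 0.0915, adjusted p = 0.019). Hspb1, a gene of 3 exons, spans 135887919 to 135889563 of chromosome 5 (mm10, plus strand).

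Cryab did not pass. Its controls ranged from 1290 to 1563 CPM (median 1515) and its gRNA libraries from 1255 to 1848 CPM (median 1556), so the gRNA values reached beyond the controls on both sides. The log2 fold change was 0.10, with a 95% interval of -0.08 to 0.28 (adjusted p = 0.43). Hspb2, the small heat shock gene that lies 404 bases from Cryab on the other strand (chromosome 9), had control and gRNA means of 153 ± 17.4 and 153 ± 19.1 CPM (SD, n = 7 each, log2 0.01, adjusted p = 0.96). The ratio of Hspb1 to Cryab per kilobase was 14.97 to 19.5% (median 18.4%) in controls and 15.9 to 24.5% (median 21.4%) in gRNA libraries, with 4 gRNA libraries above all controls.

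Of 5 other tested genes with the symbol of a small heat shock protein, 1 fell, beside 13.7% of all genes. Hspb3, a muscle form, had 14.7 to 21.6 CPM in controls and 10.6 to 16.7 CPM in gRNA libraries, 6 of which lay below all controls (log2 -0.48, adjusted p = 0.0029). Hspb6, the target of cyclic nucleotide kinases also called HSP20, was at 1242 ± 95.1 and 1431 ± 209 CPM (SD, n = 7 each, log2 0.20, adjusted p = 0.089). Hspb8, which works with Bag3 in the removal of damaged filamin, was at 520 ± 52.4 and 499 ± 42.3 CPM (SD, n = 7 each, log2 -0.06, adjusted p = 0.60). The lens gene Cryaa had no counts. The median of the list was -0.05, which is the value of Hspb11. That gene held 3.87 ± 1.38 CPM in controls and 3.72 ± 0.915 CPM in gRNA libraries (SD, n = 7 each), and its place in the list rests on its symbol.

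The stress-responsive HSP90 gene rose and the constitutive one did not pass. Hsp90aa1, which encodes HSP90 alpha, held 47.6 to 72.2 CPM in controls (median 59.9) and 64.1 to 117 CPM in gRNA libraries (median 101). Of the gRNA libraries, 6 were above all controls, and gRNA replicate 2 at 64.1 CPM lay among them. Group means were 60.8 ± 9.14 for control and 100.3 ± 17.7 CPM for gRNA (SD, n = 7), a 1.65-fold difference (log2 0.72, SE 0.121, adjusted p = 2.7e-04). Hsp90aa1, a gene of 11 exons, spans 110691036 to 110696395 of chromosome 12 (mm10, minus strand).

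Hsp90ab1, which encodes HSP90 beta and lies on chromosome 17, did not pass, and 3 gRNA libraries lay above all controls. Its controls ranged from 1078 to 1311 CPM (median 1205) and its gRNA libraries from 1210 to 1490 CPM (median 1299). The log2 fold change was 0.11, with a 95% interval of -0.02 to 0.23 (adjusted p = 0.21). Per kilobase, Hsp90aa1 stood at 3.47 to 4.96% of Hsp90ab1 in controls (median 4.42%) and at 4.66 to 7.64% in gRNA libraries (median 6.91%). In this ratio, 6 gRNA libraries were above all controls, and the ratio does not depend on library scaling. Processed copies of the HSP90 genes and of Hspa8 lie elsewhere in the genome, and how reads that match several places were counted was not stated in the labels.

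**Figure D3:**
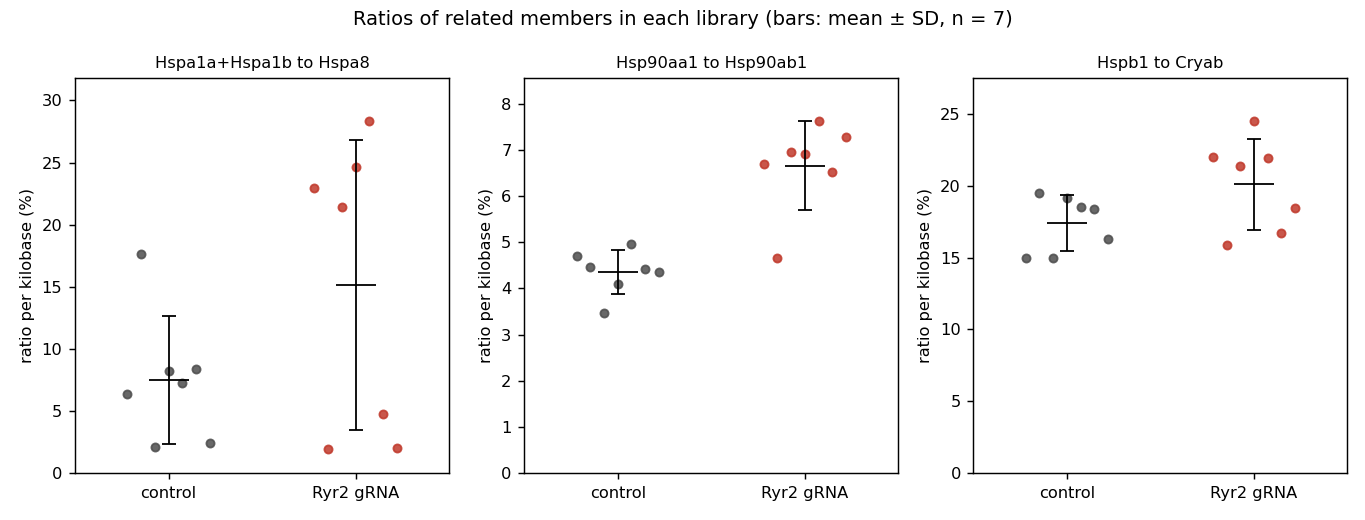
Ratios within each library, per kilobase and in percent, of Hspa1a+Hspa1b to Hspa8, Hsp90aa1 to Hsp90ab1 and Hspb1 to Cryab, with bars for mean ± SD (n = 7). For Hsp90aa1 to Hsp90ab1, 6 of 7 gRNA libraries lie above the highest control at 4.96%. The ratio of Hspa1a+Hspa1b to Hspa8 runs from 1.92 to 28.4% within the gRNA group alone. Its level depends on how reads common to Hspa1a and Hspa1b were counted, which is not known here.

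HSP90 cochaperones, given for comparison, held both lower and higher genes. Of 19 tested, 7 fell (36.8%, beside 13.7% of all genes) and 2 rose (10.53%, beside 14.5%), with a median of -0.10. The lowest p-values of the list were those of Fkbp4 and Itgb1bp2. Fkbp4, the immunophilin FKBP52 of steroid receptor complexes, held 673 to 762 CPM in controls and 416 to 569 CPM in gRNA libraries (log2 -0.62, SE 0.0689, adjusted p = 5.8e-06). Itgb1bp2, which encodes melusin, an HSP90 partner made in striated muscle, held 282 to 364 and 181 to 238 CPM (log2 -0.60, SE 0.0730, adjusted p = 1.3e-05). The groups did not overlap for either gene.

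The third by p was Cdc37l1, a relative of the kinase cochaperone Cdc37, which held 136 to 189 CPM in controls and 109 to 119 CPM in gRNA libraries (log2 -0.45, adjusted p = 5.0e-05). Also lower were Aarsd1 (log2 -0.43), Ppp5c (-0.26), a phosphatase bound to HSP90, Unc45b (-0.19), the myosin chaperone of striated muscle, and Nudc (-0.17). The 2 that rose were Tomm34 (log2 0.46, adjusted p = 1.9e-04), a scaffold that binds HSP70 and HSP90, and Fkbp5 (0.51, adjusted p = 0.033), the glucocorticoid-responsive immunophilin FKBP51. Stip1, which bridges HSP70 and HSP90, had a log2 fold change of -0.16 (adjusted p = 0.068).

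Hsph1, the HSP110 nucleotide exchange factor of HSP70, was higher in the gRNA group. Its controls ranged from 61.8 to 80.4 CPM (median 68.2) and its gRNA libraries from 64.9 to 115 CPM (median 93.3). Above all controls lay 5 gRNA libraries, and 2 lay among them. Group means were 69.7 ± 7.12 for control and 95.01 ± 19.5 CPM for gRNA (SD, n = 7), with a log2 fold change of 0.45 (SE 0.116, adjusted p = 0.0084). Hsph1, a gene of 18 exons, spans 149616845 to 149636315 of chromosome 5 (mm10, minus strand).

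Hspa8, the constitutive HSP70 called HSC70, had nearly equal means with a wider gRNA group. The controls ranged from 908 to 1072 CPM (median 961) and the gRNA libraries from 708 to 1188 CPM (median 1010). Below all controls lay 3 gRNA libraries, and 2 lay above. Group means were 969 ± 63.4 for control and 968 ± 177 CPM for gRNA (SD, n = 7), with a 95% interval of the log2 fold change of -0.21 to 0.21 (adjusted p = 0.99).

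The inducible HSP70 genes Hspa1a and Hspa1b are single-exon neighbours that span 34969359 to 34972156 and 34956429 to 34959238 of chromosome 17 (mm10, minus strand). Their coding sequences of 1926 and 1929 bases differed at 8 bases and by gaps of 3 bases in all (99.4% identity, from GENCODE M21 transcripts), so reads from the coding part can be assigned to either. Outside it the transcripts diverge, and 41.2% of the windows of 50 bases in the Hspa1a transcript were not found in Hspa1b. The count of Hspa1b was 0.781 to 1.05 times that of Hspa1a in controls (mean 0.921 ± 0.114, SD, n = 7) and 0.779 to 1.46 times in gRNA libraries (1.17 ± 0.212), of which 6 lay above all controls. How reads common to both were assigned is not known here, so the ratio is a description, and the sum of both rows is given beside each.

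Hspa1a ranged from 15.9 to 112 CPM in controls (median 48.5) and from 10.2 to 170 CPM in gRNA libraries (median 120). Of the gRNA libraries, 4 lay above all controls, 2 lay below all controls and 1 lay among them. Hspa1b ranged from 12.9 to 114 CPM in controls (median 46.5) and from 7.94 to 206 CPM in gRNA libraries (median 132), of which 4 lay above all controls, 1 below and 2 among them. The sum ranged 7.82-fold within the controls and 20.7-fold within the gRNA group. Neither gene passed, with log2 fold changes of 0.84 (95% interval -0.36 to 2.05, adjusted p = 0.30) and 1.17 (-0.11 to 2.45, adjusted p = 0.17), nor did the sum (log2 1.02, -0.23 to 2.27, adjusted p = 0.22). The interval of the sum runs from below 0 to 2.27 on the log2 scale, so these libraries do not settle its direction.

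Dnajb1, the J-domain partner that recruits HSP70 to its substrates (chromosome 8, plus strand, 83608175 to 83611903), spread in the same libraries. Its controls ranged from 47.0 to 144 CPM (median 84.5) and its gRNA libraries from 28.2 to 203 CPM (median 120). Of the gRNA libraries, 2 lay above all controls and 2 below (log2 0.36, 95% interval -0.43 to 1.15, adjusted p = 0.53). The 5 libraries with the most Hspa1a, which were gRNA replicates 1, 3, 4 and 5 and control replicate 2, were also the 5 with the most Hspa1b and the 5 with the most Dnajb1. Since 4 of the 5 are gRNA libraries, a gene that is higher in that group shares some of them for that reason alone. Within the gRNA group, the 4 libraries highest in Hspa1a were also the 4 highest in Hspa1b and in Dnajb1, and 3 of them were shared by Hsp90aa1 and Hspb1, as by the summed endothelial markers. The other 5 members shared 2 each. Sets of 4 libraries within the gRNA group always overlap, and these overlaps were not tested.

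**Figure D4:**
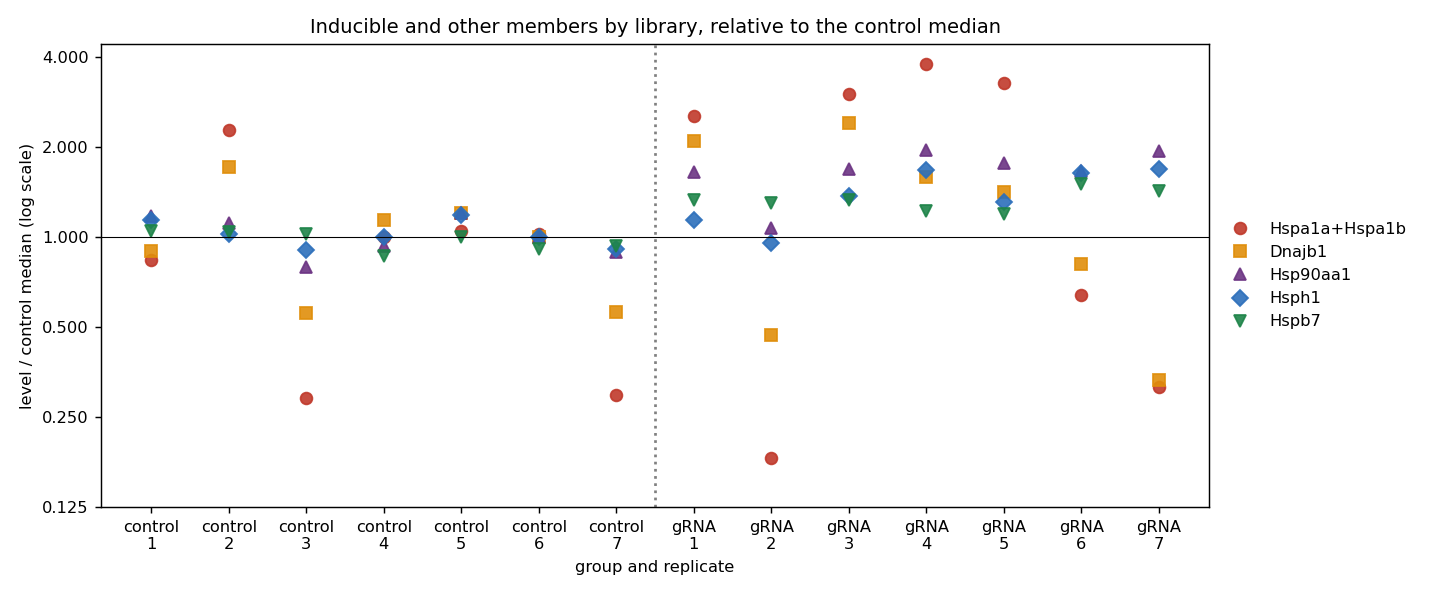
Level of Hspa1a+Hspa1b, Dnajb1, Hsp90aa1, Hsph1 and Hspb7 in each library relative to the control median, on a log axis, with the groups split by a dotted line. Hspa1a+Hspa1b and Dnajb1 are highest in the same 4 gRNA libraries and control replicate 2, and below the control median in gRNA replicates 2, 6 and 7, whereas Hspb7 is above the line in every gRNA library.

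Within groups Hspa1b and Hspa1a were among the most variable of all 11170 tested genes. Their within-group SD was 1.54 and 1.42 on the log2 CPM scale, places 9 and 10, and that of Dnajb1 was 0.87, place 148, against a median of 0.20 over all genes. The other members lay between 0.10 (Hsp90ab1) and 0.26 (Hsp90aa1). After each gene's own group mean was removed, the profile of Hspa1a over the 14 libraries differed from that of Hspa1b by a root mean square of 0.22 log2 units and that of Dnajb1 by 0.75, the 2 smallest differences of 8483 genes compared. The nearest 5 genes that are no members were Apold1 (0.86), an endothelial gene of the apolipoprotein L family, Rgs4 (0.95), a regulator of G-protein signalling, the kinase Prkd2 (0.96), the VEGF receptor Flt1 (0.996) and the transcription factor Klf4 (0.9996). None of these 5 passed between the groups in the test across all genes (adjusted p = 0.67 to 0.94). Within-group SDs were 0.99 for Apold1, 0.74 for Rgs4, 0.78 for Prkd2, 0.74 for Flt1 and 0.85 for Klf4, all below that of Hspa1b (1.54). The root mean square also grows with such a gap in SD, so it does not measure shared direction alone.

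The endothelial markers are given beside the inducible genes. Summed over 6 markers, gRNA replicates 4 and 5 held 616 and 548 CPM and control replicates 4 and 5 held 487 and 545 CPM, the highest 4 values. In the same libraries Hspa1a and Hspa1b together held 376 and 323 CPM and 99.3 and 104 CPM. The other gRNA libraries went both ways: replicates 2, 6 and 7 had 197, 234 and 157 CPM of endothelial markers with 18.1, 63.6 and 31.4 CPM of Hspa1a and Hspa1b, while replicates 1 and 3 had 193 and 291 CPM with 252 and 299 CPM. Of the 4 gRNA libraries highest in endothelial markers, 3 were among the 4 highest in Hspa1a. Sets of 4 libraries within the gRNA group always overlap, and this overlap was not tested. With the endothelial sum as a covariate, a fit chosen after the data were seen, the log2 fold changes were 0.92 for Hspa1a (adjusted p = 0.13) and 1.23 for Hspa1b (adjusted p = 0.057). The calls of Hspb7, Hsp90aa1, Hsph1 and Hspb1 were also made in that fit.

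Immediate early genes, whose transcripts rise fast after many stimuli, were tested as a further list. Of 13 tested 1 rose (7.69%, beside 14.5% of all genes), Fosb, with means of 2.36 ± 1.82 and 6.04 ± 2.97 CPM (SD, n = 7 in each group), a log2 fold change of 1.36 (adjusted p = 0.040). The sum of the list was 1388 to 3125 CPM in controls and 1353 to 3065 CPM in gRNA libraries. Klf4, named above among the non-members nearest in profile to Hspa1b, is 1 of the genes of this list.

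Heat shock factors and most other chaperones did not pass. Hsf1, the main factor of the heat shock response, had control and gRNA means of 54.2 ± 4.31 and 49.2 ± 4.38 CPM (SD, n = 7 each, log2 -0.14, adjusted p = 0.16). The other tested genes of that list had log2 fold changes of 0.20 (Hsf2, adjusted p = 0.57) and -0.02 (Hsbp1, an inhibitor of the factor, adjusted p = 0.86). Over 7 lists of factors, chaperones and cochaperones, 66 genes beside the members were tested, with a median of -0.02. Of these 3 rose (4.55%, beside 14.5% of all genes) and 13 fell (19.7%, beside 13.7%).

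**Figure D5:**
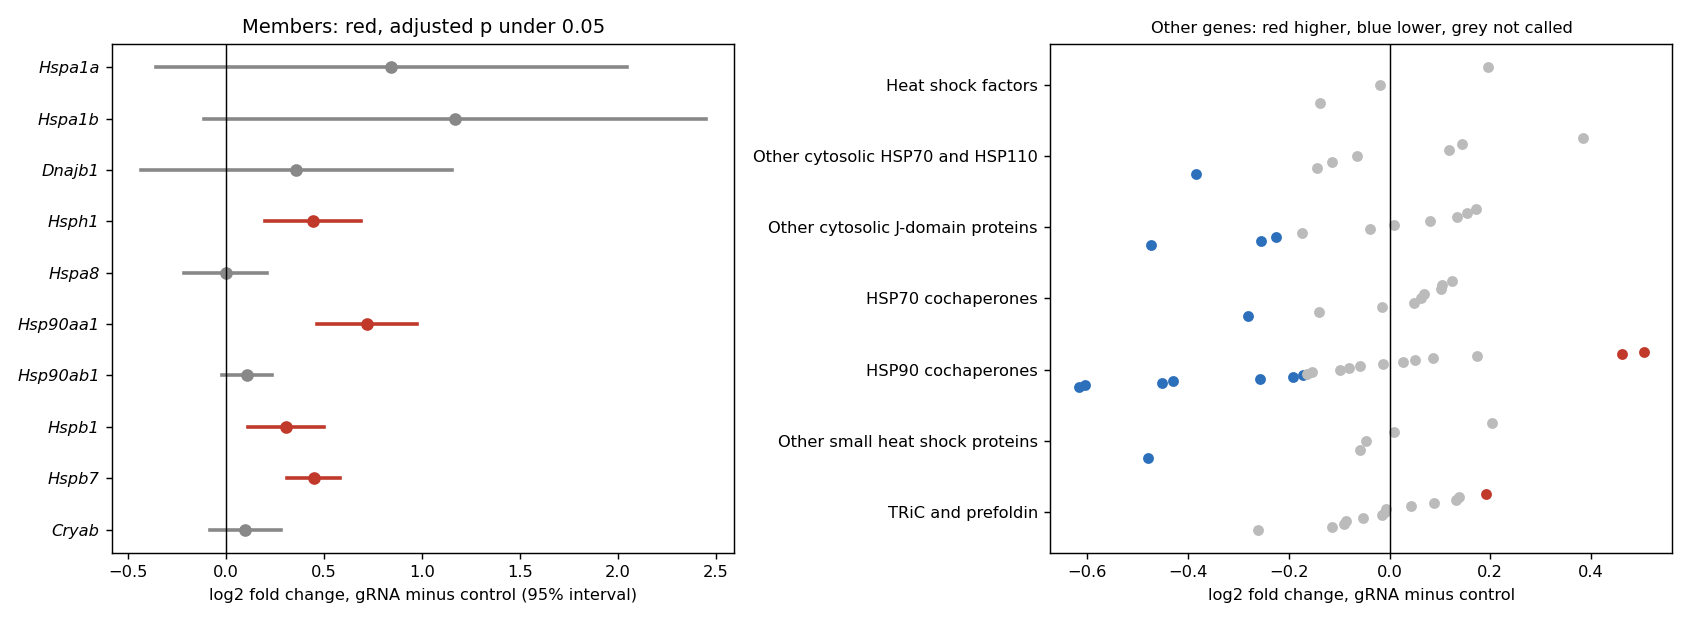
Log2 fold change of gRNA minus control, on the left for the 10 members with 95% intervals and on the right for 66 other genes in 7 lists, coloured where the adjusted p was under 0.05. The members' intervals are narrow for Hspb7 and wide for Hspa1a, Hspa1b and Dnajb1, and the 19 HSP90 cochaperones include 7 lower and 2 higher genes.

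Among 10 other J-domain genes 3 fell, beside 13.7% of all genes. They were Dnajc7 (log2 -0.26, adjusted p = 9.8e-04), which binds HSP70 and HSP90, Dnajb5 (-0.47, adjusted p = 0.0012) and Dnaja4 (-0.23, adjusted p = 0.017). For Dnajc7 the controls held 112 to 132 CPM and the gRNA libraries 99.1 to 111 CPM, without overlap. Of 9 HSP70 cochaperones 1 fell (11.1%, beside 13.7% of all genes). It was Bag1 (log2 -0.28, adjusted p = 0.0046), a nucleotide exchange factor that links HSP70 to the proteasome. Bag3, the partner of Hspb8 in muscle, was at 351 ± 27.4 and 377 ± 29.9 CPM (SD, n = 7 each, log2 0.10, adjusted p = 0.25). Of 7 other HSP70 and HSP110 genes 1 fell (14.3%, beside 13.7% of all genes), Hspa12a (log2 -0.39, adjusted p = 0.0066). Hspa2 (0.38, adjusted p = 0.084) and Hspa4 (0.12, adjusted p = 0.11), a relative of Hsph1, did not pass. In the chaperonin TRiC and its helper prefoldin, which fold actin and tubulin, 1 of 13 tested genes rose, Cct5 (0.19, adjusted p = 0.026). This was 7.69%, beside 14.5% of all genes.

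The libraries with index numbers 7 to 10 (replicates 4 and 5 of each group) stood apart on the second principal component of log2 CPM (24.2% of the variance), with scores of -31.6 to -24.1 against -7.6 to 29.4 for the other 10, and the labels name no batch. Within these 4 libraries 5.84% of genes were called higher and 6.59% lower, and among the other 10 libraries 12.5% were higher and 11.6% lower. Hspb7 was called in both, with log2 fold changes of 0.33 (adjusted p = 0.036) within the 4 and 0.48 (adjusted p = 1.6e-04) among the 10. Hsp90aa1 was also called in both, at 0.76 (adjusted p = 0.0041) and 0.68 (adjusted p = 0.0030). Hsph1 passed among the 10 (0.45, adjusted p = 0.030) and not within the 4 (0.41, adjusted p = 0.079). Hspb1 passed in neither, at 0.32 (adjusted p = 0.052) among the 10 and 0.22 (adjusted p = 0.21) within the 4.

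Hspa1a and Hspa1b passed within the 4 libraries, where 2 samples of each group were compared, with log2 fold changes of 1.51 (adjusted p = 6.1e-05) and 1.96 (adjusted p = 4.0e-06). Among the other 10 they were at 0.37 (adjusted p = 0.74) and 0.60 (adjusted p = 0.59). A test of the difference between these sets of libraries passed for no member (interaction term, edgeR, adjusted p = 1.0 for both genes), with 0 members at an unadjusted p under 0.05, and 0% of all genes were called in that test (339 of 11170 at an unadjusted p under 0.05). In the authors' deposited table, the same 4 members had an adjusted p under 0.05. Their log2 fold changes there were 0.44 for Hspb7, 0.71 for Hsp90aa1, 0.44 for Hsph1 and 0.30 for Hspb1. The adjusted p-values of these 4 equal those of the DESeq2 fit made here on the same counts, so the deposited values are not a separate test.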

How the data were processed

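Poly(A) RNA of sorted cardiomyocytes was sequenced in 14 libraries (SMART-Seq v4 and Nextera XT, per the labels' protocols), 7 per group. The deposited counts are whole-number read counts per gene, not normalised. Per the submitters' processing notes, STAR, featureCounts, DESeq2 and DESeq were used with build mm10; the sources used here give no versions, annotation or strand setting. The header of the count table gives exon positions and lengths. The authors' deposited table of their comparison holds, per the file headers, mean signal per gene, log2 fold changes, the Wald score and p-values; only its values for the members were used. No row lacked a gene name and 0 value columns were unmapped. No exon of a member overlapped another gene's (0 cases).

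Groups were compared with edgeR 4.0.16 under R 4.3.3 (two-sided quasi-likelihood test), with the default filterByExpr filter, TMM scaling, no covariates and Benjamini-Hochberg adjustment over 11170 genes; calls had an adjusted p under 0.05. Standard errors were derived as the absolute log2 fold change over the square root of the F statistic of that test. Intervals (95%) use these standard errors with a quantile of the t distribution. The fit was tested on simulated data. SMART-Seq reads carry no molecular identifiers. Depth was 5689335 to 13165662 counts per library. Alternatives were median-of-ratios (RLE) scaling, DESeq2 1.42.0, no filter, each library left out, library indices 7 to 10 alone, the other 10, a term for them, a replicate block, and endothelial markers as a covariate.

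The members and lists were chosen with earlier results of these data known. The text names the 10 members, Ryr2, up to 3 genes per chaperone list by smallest p, genes behind any count of at most 5, Hsf1, Bag3, Hspb8, and the 5 genes nearest in profile to the most variable member (mean log2 CPM of at least 3, prior count 2). Hspb2, Hspb11, Stip1, Aarsd1, Ppp5c, Unc45b and Nudc were chosen after their values were seen. So were Ttn, Actn2 and Synpo2 where outside that rule. Promoters come from RefSeq (GRCm38.p6). Of the lists, Pfdn6 had no row in the table.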

Additional observations from a re-analysis of the deposited data

Results flagged for a closer look

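In 4 cases 1 library of a group of 7 stood apart from the other 6 by more than Dixon's criterion allows. The groups looked at were 20 (10 genes, 2 groups each). For normally distributed values and independent groups, about 1 in 20 would be flagged. The criterion was applied to CPM and not to log2 CPM, and flags of the near-identical copies Hspa1a and Hspa1b are not independent. Control replicate 2 was far above the other controls for Hspa1a (112 CPM), Hspa1b (114 CPM) and Hspb1 (225 CPM). gRNA replicate 2 was far below the other gRNA libraries for Hsp90aa1 (64.1 CPM), and it was the lowest gRNA library for 7 of the 10 genes. Control replicate 3 was the lowest control for 6 of the 10.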

How the results depend on the processing

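Each of the 4 calls (Hspb7, Hsp90aa1, Hsph1, Hspb1) was also made with RLE scaling, DESeq2, no filter, a term for library indices 7 to 10, the endothelial covariate and on leaving out each library. Without 1 library, the log2 fold changes ranged from 0.42 to 0.48 for Hspb7, 0.67 to 0.80 for Hsp90aa1, 0.39 to 0.52 for Hsph1 and 0.26 to 0.36 for Hspb1 (highest adjusted p = 0.042, without control replicate 3). They ranged from 0.61 to 1.18 for Hspa1a, 0.93 to 1.55 for Hspa1b, 0.78 to 1.38 for their sum, 0.14 to 0.53 for Dnajb1, 0.08 to 0.13 for Hsp90ab1, 0.05 to 0.15 for Cryab, -0.06 to 0.06 for Hspa8 and -1.18 to -1.05 for Ryr2. The members called numbered 4 higher and 0 lower each time, and all genes 1433 to 1664 higher and 1284 to 1527 lower.

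Within library indices 7 to 10, where fewer samples were compared, 689 genes were higher and 777 lower. There Hspa1a (1.51), Hspa1b (1.96) and their sum (1.74) passed, Hsph1 (0.41) and Hspb1 (0.22) did not, and Cryab was at -0.09. The 4 members called higher there included 2 of the 4 called in all libraries. Among the other 10, 3 members were called, all of them among the 4, and Hspb1 (0.32) did not pass. Hspa8 was at 0.0034 without a filter and at 0.01 with the endothelial covariate. Deviations of same-numbered libraries of the groups correlated over 0.1 in 6 of 7 pairs (0.0614 for replicates 6). The best-matching control had the same number only for gRNA replicates 3 and 7, so the numbers were not taken as pairs. With a replicate block the members called were again 4 higher and 0 lower (log2 fold change 0.45 for Hspb7, 0.71 for Hsp90aa1, 0.43 for Hsph1, 0.30 for Hspb1, 0.66 for Hspa1a), and all genes 1922 higher and 1848 lower. Without division by length, 4 members changed places with a neighbour in the order of levels. The lowest counts of Hspa1b and Hspa1a were 60 and 77, both in gRNA replicate 2, and every other member had at least 274 counts in each library. The spread between libraries sets the width of the Hspa1a and Hspa1b intervals.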

Other observations

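Of 6 genes for muscle clients and partners of small heat shock proteins, 3 rose, beside 14.5% of all genes. Sqstm1, the autophagy receptor p62, had 420 to 482 CPM in controls and 630 to 982 CPM in gRNA libraries (edgeR, log2 0.91, SE 0.0811, adjusted p = 4.4e-07). Des, the desmin of muscle intermediate filaments, had 2499 to 2888 and 3073 to 3792 CPM (log2 0.35, adjusted p = 3.9e-04), and the groups did not overlap for either gene. Flnc, filamin C of the Z-disc, had 226 to 340 and 285 to 483 CPM, with 5 gRNA libraries above all controls (log2 0.40, adjusted p = 0.019). The others, Ttn, Actn2 and Synpo2, had log2 fold changes of 0.00, -0.05 and -0.03.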
